A study of Mus musculus with 12 samples.

Results

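The genes described here are 6 serpins of clade A measured in mouse liver, namely Serpina7, Serpina6, Serpina12, Serpina4-ps1, Serpina10 and Serpina11. They were taken as the probe sets annotated to 1 of these gene symbols and no other, which gave 6 probe sets, 1 for each gene, among 19938 genes measured by a probe set with a single symbol. The set was selected on the measured levels of these same arrays over all 4 groups, and Serpina7 and Serpina12 entered it because they differed between genotypes on the control diet. The values of the 6 genes are therefore given as a description, with standard errors and intervals but no p-value, in every comparison.

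Liver RNA was hybridised to Affymetrix mouse gene arrays, 3 for each of 4 groups and 12 in all. KI_MR mice were homozygous for the Lmna G609G knock-in allele and received a methionine-restricted diet. KI_CD mice carried the same homozygous allele and received the control diet. WT_MR mice were wild type on the methionine-restricted diet, and WT_CD mice were wild type on the control diet. All were male C57BL/6N mice bred from heterozygous parents, started their diet at 7 weeks of age and were killed at 110 days of age after 6 hours of fasting. The knock-in is a whole-body mouse model of Hutchinson-Gilford progeria: the allele alters splicing of lamin A and yields progerin, a truncated protein that accelerates ageing in many tissues, so liver changes are not separated from those of the rest of the animal. Nothing in the labels ties each array to an animal of its own, so the p-values measure the spread between these samples.

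Serpins are proteins that fold around an exposed reactive loop. Most of them trap a protease on that loop, but some members of clade A have lost inhibitory activity and carry a small hormone instead. The liver secretes many of them into the blood. Serpina7 is thyroxine-binding globulin, a plasma carrier of thyroid hormone, and Serpina6 is corticosteroid-binding globulin, the carrier of corticosterone. Serpina12 is vaspin, first described as an adipose-derived factor and known as an inhibitor of kallikrein 7. Serpina10 is the protein Z-dependent protease inhibitor, which inhibits coagulation factor Xa together with protein Z, and also factor XIa. Serpina4-ps1 is a mouse pseudogene related to human kallistatin, annotated by RefSeq as a transcribed pseudogene. Serpina11 is a liver-expressed serpin with no role stated here.

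The arrays were even in brightness, with a median intensity between 82 and 90 on each. The first KI_CD array stood apart: it correlated with its replicates at a mean of 0.986, against 0.989 to 0.994 for the other 11 arrays. Changes of the 6 serpins that involve KI_CD are given with and without it. Lmna averaged 7.85 ± 0.14 log2 units in KI_MR, 8.0 ± 0.32 in KI_CD, 7.55 ± 0.09 in WT_MR and 7.37 ± 0.03 in WT_CD (SD, n = 3 each). The probe set reads the whole gene and cannot tell lamin A from progerin, so it does not check the genotype labels. Summed over 6 of 8 hepatocyte markers that were measured, intensity was 67976 to 70308 in KI_MR, 69646 to 72831 in KI_CD, 63377 to 69545 in WT_MR and 67296 to 70132 in WT_CD. These are whole-tissue samples, in which fewer cells of a type and less RNA per cell cannot be told apart.

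RefSeq promoter windows, which run from 250 bases before to 50 bases after a gene's start, were held for 3 of the 6 genes: Serpina7, Serpina11 and Serpina12. The windows of Serpina7 and Serpina12 are printed because these 2 genes differed between groups with the least overlap between arrays. Their coordinates are those of GRCm38.p6, both on the minus strand, written 5′ to 3′, with matches to the searched letters in capitals. Serpina7 and Serpina11 each have a pair of overlapping windows, and positions are those of the first. The Serpina7 window is chrX:139085187-139085486 and the Serpina12 window is chr12:104044394-104044693.
Serpina7: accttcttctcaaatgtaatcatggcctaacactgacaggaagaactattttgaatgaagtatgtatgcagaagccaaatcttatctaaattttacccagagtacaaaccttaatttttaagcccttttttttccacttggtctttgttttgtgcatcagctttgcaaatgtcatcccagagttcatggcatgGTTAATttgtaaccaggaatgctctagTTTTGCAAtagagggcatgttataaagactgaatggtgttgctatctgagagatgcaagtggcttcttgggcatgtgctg
Serpina12: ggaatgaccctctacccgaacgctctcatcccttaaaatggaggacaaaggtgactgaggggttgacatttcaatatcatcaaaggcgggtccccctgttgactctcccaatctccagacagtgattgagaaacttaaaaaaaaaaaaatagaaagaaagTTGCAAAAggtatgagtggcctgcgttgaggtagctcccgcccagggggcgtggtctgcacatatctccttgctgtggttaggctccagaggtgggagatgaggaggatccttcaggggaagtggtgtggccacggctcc

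Letters recognised by 7 liver regulators were searched on both strands. The Serpina7 window held GTTAAT, the core of HNF1 sites, at position -57 from the start, and TTGCNNAA, read by C/EBP factors, on the opposite strand at -30. The Serpina12 window held TTGCNNAA on its own strand at -90. The Serpina11 window held the STAT5 letters TTCNNNGAA at -51. Matches do not overlap one another in these windows. Among all 32851 windows of the same length, 7.1% held GTTAAT, 10.8% held TTGCNNAA and 8.3% held TTCNNNGAA, so each is common. The FOXA letters TGTTTAC, the ONECUT letters ATCAAT, the glucocorticoid receptor letters TGTTCT and the amino acid response letters TGATGNAA were in none of the windows of these 3 genes and in 3.65%, 7.54%, 19% and 3.97% of all windows.

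Serpina7 was the member with the highest change in the genotype comparison on the control diet. Its intensity was 2654, 2500 and 2153 in the KI_MR arrays, 3475, 4227 and 2069 in KI_CD, 1980, 1987 and 2403 in WT_MR, and 668, 425 and 555 in WT_CD. The 3 WT_CD arrays lay below all the other 9, and the other 3 groups overlapped one another. On the log2 scale the means were 11.24 ± 0.16 in KI_MR, 11.61 ± 0.53 in KI_CD, 11.05 ± 0.16 in WT_MR and 9.08 ± 0.33 in WT_CD (SD, n = 3 each). KI_CD exceeded WT_CD by 2.53 ± 0.24 (SE), or 5.78-fold, with a 95% interval of 2.01 to 3.05 on the log2 scale. Without the first KI_CD array this difference was 2.45.

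Serpina7 was also higher under methionine restriction in wild-type mice. The difference between WT_MR and WT_CD was 1.97 ± 0.24 log2 units, or 3.92-fold, with a 95% interval of 1.45 to 2.49. The comparison shares its WT_CD arrays with the genotype comparison on the control diet. In KI mice, KI_MR minus KI_CD was -0.36 ± 0.24 with a 95% interval of -0.88 to 0.15, and -0.29 without the first KI_CD array. Between the restricted groups, KI_MR minus WT_MR was 0.20 ± 0.24, with an interval of -0.32 to 0.72.

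**Figure D1:**
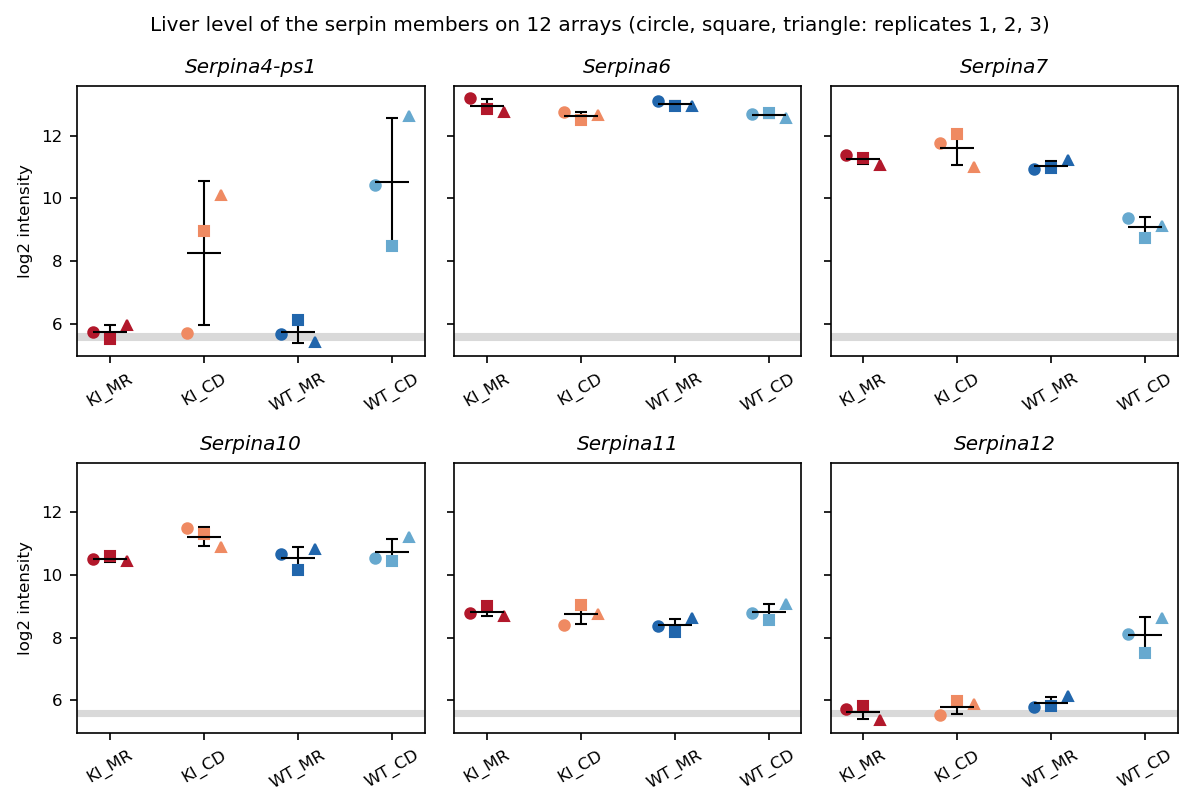
Log2 intensity (vertical axis) of the 6 serpins in each of the 12 arrays, with 1 panel a gene and the groups KI_MR, KI_CD, WT_MR and WT_CD from left to right. Points are arrays, with a circle, square and triangle for replicates 1, 2 and 3, black lines are the group mean ± SD, and the grey band is the range over arrays of the lower quartile of all gene levels, 5.49 to 5.67. Serpina7 is low and Serpina12 high in the WT_CD arrays alone, and Serpina4-ps1 spreads widely within KI_CD and WT_CD.

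Serpina12 showed the opposite pattern. Its intensity was 53, 57 and 41 in KI_MR, 46, 63 and 59 in KI_CD, 55, 57 and 71 in WT_MR, and 279, 181 and 396 in WT_CD. All 3 WT_CD arrays lay above the other 9, whose ranges overlapped between groups. The log2 means were 5.64 ± 0.25 in KI_MR, 5.79 ± 0.24 in KI_CD, 5.92 ± 0.20 in WT_MR and 8.08 ± 0.57 in WT_CD (SD, n = 3 each). The first 3 of these means are close to the lower quartile of all gene levels on the arrays, which was 5.49 to 5.67. The deposited table holds no detection call, so how much of that dim signal is background is unknown and a fold change against it may understate the true ratio.

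KI_CD minus WT_CD was -2.29 ± 0.24 log2 units for Serpina12, or 4.89-fold lower, and -2.15 without the first KI_CD array. Serpina12 was also lower under methionine restriction in wild-type mice. WT_MR minus WT_CD was -2.16 ± 0.24, or 4.48-fold lower, with a 95% interval of -2.70 to -1.62. As for Serpina7, both comparisons share the WT_CD arrays. KI_MR minus KI_CD was -0.16 ± 0.24, with an interval of -0.69 to 0.38, and -0.29 without the first KI_CD array. KI_MR minus WT_MR was -0.28 ± 0.24, with an interval of -0.82 to 0.26.

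Vaspin is best known from fat, so adipocyte markers were examined beside it. The summed intensity of 5 of 6 adipocyte markers that were measured was 443 to 676 in KI_MR, 437 to 1337 in KI_CD, 470 to 545 in WT_MR and 525 to 774 in WT_CD. Adipoq, which encodes adiponectin and defines adipocytes, averaged 5.01 log2 units in KI_MR, 5.16 in KI_CD, 5.04 in WT_MR and 5.09 in WT_CD, below the lower quartile of gene levels in every group. In WT_MR minus WT_CD all 5 markers were below 0, with a median of -0.26 against -0.004 over all genes. Plin1, a lipid droplet coat protein, changed by -0.26 ± 0.12 (SE), the fatty acid carrier Fabp4 by -0.44 ± 0.45 and Retn, which encodes resistin, by -0.50 ± 0.54. Adipoq changed by -0.05 ± 0.14 and Cidec by -0.02 ± 0.42. In KI_CD minus WT_CD 2 of 5 were below 0, Plin1 at -0.28 ± 0.12 and Fabp4 at -0.02 ± 0.45, and the median was 0.06. Above 0 were Adipoq at 0.06 ± 0.14, Retn at 0.16 ± 0.54 and Cidec at 0.20 ± 0.42. No adipocyte marker passed in any comparison with limma; Plin1 had an unadjusted p under 0.05 in both of these. The part of these markers in the level of Serpina12 was not tested.

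The difference in diet change between genotypes, KI minus WT, contains the genotype difference on the control diet by which both genes were chosen. It was -2.33 ± 0.33 for Serpina7, with a 95% interval of -3.06 to -1.60, and 2.01 ± 0.35 for Serpina12, with an interval of 1.25 to 2.77. Without the first KI_CD array it was -2.25 for Serpina7 and 1.87 for Serpina12. Over all genes the interaction called 0 of 19938 (0%) with limma, and 824 genes, or 4.13%, had an unadjusted p under 0.05.

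Serpina4-ps1 had the widest range of the 6. Its intensity was 54, 46 and 63 in KI_MR, 52, 501 and 1098 in KI_CD, 51, 69 and 43 in WT_MR, and 1371, 360 and 6281 in WT_CD. All 6 restricted arrays and the first KI_CD array were dim, while the WT_CD arrays differed among themselves by more than 10-fold. The log2 means were 5.75 ± 0.23 in KI_MR, 8.26 ± 2.28 in KI_CD, 5.74 ± 0.35 in WT_MR and 10.51 ± 2.06 in WT_CD (SD, n = 3 each).

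WT_MR minus WT_CD was -4.77 ± 1.08 for Serpina4-ps1, or 27.4-fold lower, with a 95% interval of -7.14 to -2.41, and the 2 groups did not overlap. The WT_MR mean is close to the lower quartile of gene levels, so this fold may understate the true ratio. It is also imprecise, as the WT_CD arrays ran from 360 to 6281 in intensity. KI_MR minus KI_CD was -2.50 ± 1.08, and -3.78 without the first KI_CD array. KI_CD minus WT_CD was -2.25 ± 1.08 with overlapping groups, and -0.98 without that array. KI_MR minus WT_MR was 0.02 ± 1.08. The pseudogene's transcript is similar in sequence to genes of its family, and whether related transcripts add to the probe set's signal was not tested.

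Serpina6, the corticosteroid carrier, was bright in every group. Its intensity was 9365, 7418 and 6955 in KI_MR, 6967, 5841 and 6432 in KI_CD, 8901, 7960 and 7873 in WT_MR, and 6661, 6804 and 6031 in WT_CD. The WT_MR arrays all lay above the WT_CD arrays, by 0.34 ± 0.11 log2 units with a 95% interval of 0.09 to 0.59. KI_MR minus KI_CD was 0.29 ± 0.11 with overlapping groups and a 95% interval of 0.05 to 0.54, and 0.36 without the first KI_CD array. The genotype differences were -0.02 ± 0.11 on the control diet, or -0.08 without that array, and -0.07 ± 0.11 under restriction. The mean level was 12.94 ± 0.23 log2 units in KI_MR, 12.64 ± 0.13 in KI_CD, 13.01 ± 0.10 in WT_MR and 12.66 ± 0.09 in WT_CD (SD, n = 3 each).

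Serpina10, the inhibitor of factors Xa and XIa, had an intensity of 1448, 1562 and 1380 in KI_MR, 2857, 2524 and 1895 in KI_CD, 1631, 1146 and 1817 in WT_MR, and 1481, 1408 and 2342 in WT_CD. Each KI_MR array was below each KI_CD array, while the wild-type groups overlapped. KI_MR minus KI_CD was -0.71 ± 0.22, and -0.58 without the first KI_CD array. WT_MR minus WT_CD was -0.17 ± 0.22 and KI_MR minus WT_MR -0.04 ± 0.22. On the control diet KI_CD minus WT_CD was 0.49 ± 0.22, and 0.37 without that array.

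Serpina11 had an intensity of 442, 511 and 417 in KI_MR, 342, 527 and 435 in KI_CD, 333, 293 and 393 in WT_MR, and 440, 382 and 541 in WT_CD. The KI_MR arrays lay above the WT_MR arrays with no overlap, by 0.43 ± 0.17 log2 units with a 95% interval of 0.05 to 0.81. WT_MR minus WT_CD was -0.42 ± 0.17 with overlap, and KI_MR minus KI_CD 0.09 ± 0.17, or -0.07 without the first KI_CD array. KI_CD minus WT_CD was -0.07 ± 0.17, and 0.09 without it.

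**Figure D2:**
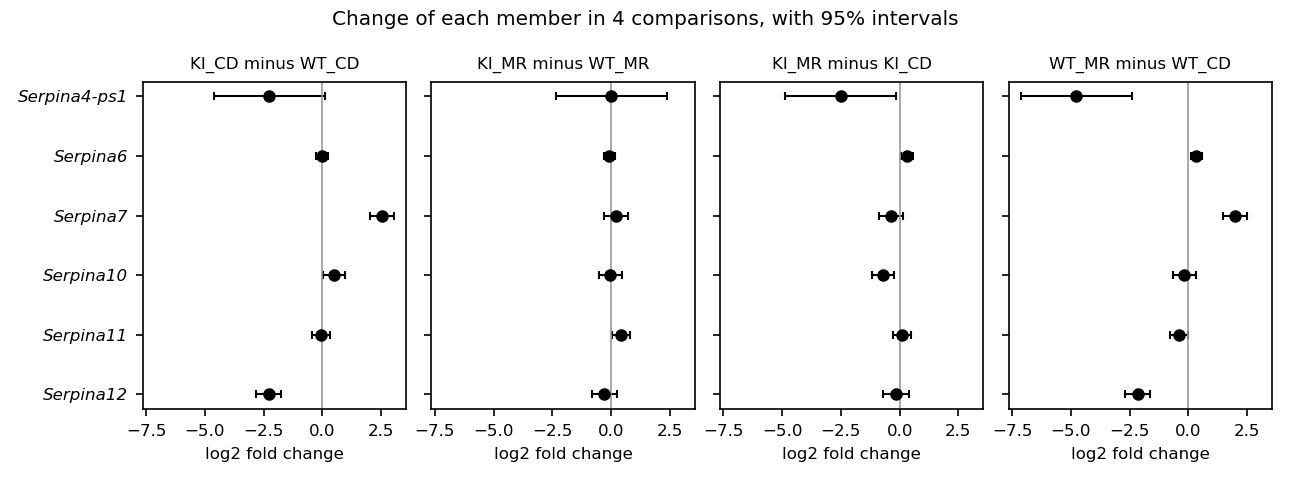
Log2 changes of the 6 serpins (horizontal axis) in the 4 comparisons of genotype or diet, 1 panel each. Points are the fitted changes with their 95% intervals. Serpina7 is higher and Serpina12 lower, by more than 1.9 log2 units, in both KI_CD minus WT_CD and WT_MR minus WT_CD, and the intervals of both include 0 in the other panels. The genes were chosen with these levels known.

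The limma threshold, an adjusted p under 0.05, was passed by 0.0802% of all genes in KI_CD minus WT_CD, 0.471% in KI_MR minus WT_MR, 0.176% in KI_MR minus KI_CD and 0.326% in WT_MR minus WT_CD. In that order 2, 0, 0 and 2 of the 6 serpins were past it, Serpina7 and Serpina12 each time. Because the 6 were selected on these levels, nothing is read from those counts. At an unadjusted p under 0.05 there were 11.2%, 14.1%, 7.78% and 8.19% of all genes, the background for the counts of the gene lists below. The median change of the 6 was -0.01 in KI_MR minus WT_MR, -0.26 in KI_MR minus KI_CD and -0.30 in WT_MR minus WT_CD, against -0.04, -0.02 and -0.004 over all genes. Nothing is read from these medians either. In WT_MR minus WT_CD the members went opposite ways, from -4.77 for Serpina4-ps1 to 1.97 for Serpina7. The order of the group means was KI_CD, KI_MR, WT_MR and WT_CD from high to low for Serpina7, where the first 3 overlapped. For Serpina12 it was WT_CD, WT_MR, KI_CD and KI_MR, where the last 3 overlapped.

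All members but Serpina7, which is on the X chromosome, lie in a serpin cluster on chromosome 12. In the RefSeq gene order of GRCm38.p6, the stretch from Serpina10 to Serpina3n holds 41 genes, of which 28 have a Serpina symbol and 14 were measured by a probe set of their own. Serpina12 and Serpina4-ps1 are next to each other among the measured genes, with the long noncoding RNA Gm31271 between them. Their measured neighbours on either side were dim and flat. Serpina9 differed by -0.04 ± 0.10 in KI_CD minus WT_CD and -0.05 ± 0.10 in WT_MR minus WT_CD, and Serpina5, the protein C inhibitor, by -0.02 ± 0.10 and -0.01 ± 0.10. Both averaged 4.95 to 5.28 log2 units in every group, below the lower quartile of gene levels, where a change of RNA may not show.

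**Figure D3:**
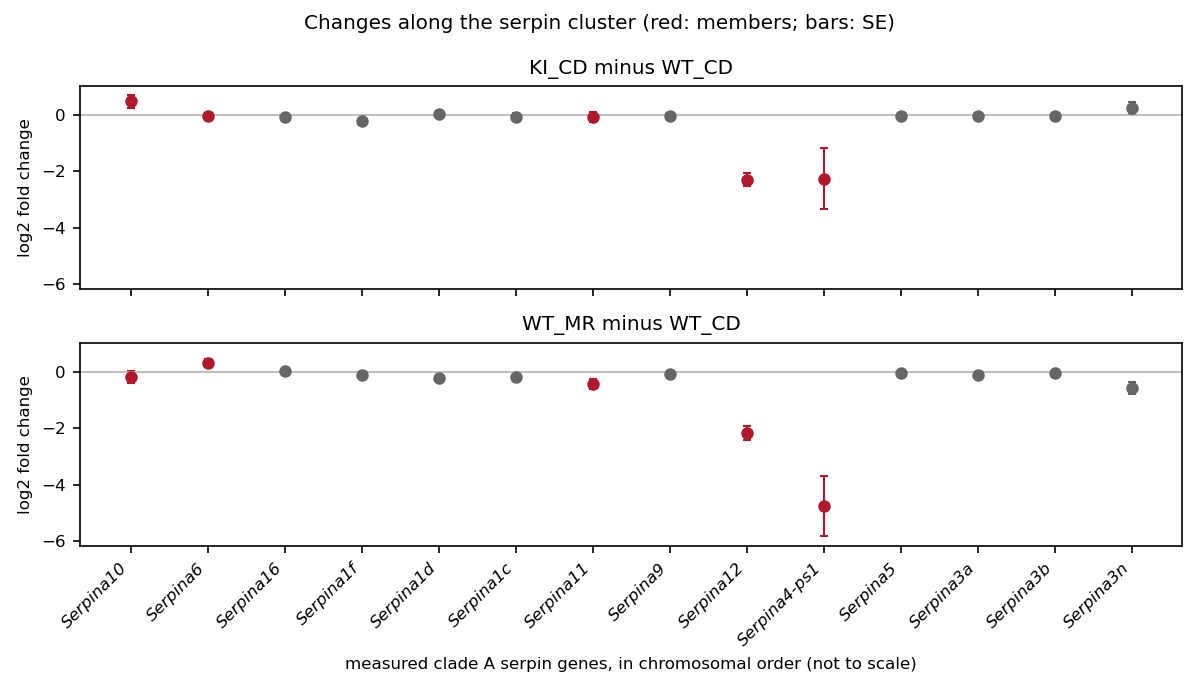
Log2 change (vertical axis) of the measured serpins of the chromosome 12 cluster in RefSeq gene order (horizontal axis, not to distance), with the members in red, for KI_CD minus WT_CD and WT_MR minus WT_CD. Points are fitted changes and bars their SE. The neighbours Serpina12 and Serpina4-ps1 lie below -2 in both comparisons, while Serpina9 and Serpina5 on either side lie near 0.

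Of 20 other clade A serpins with a Serpina symbol that were listed, 9 were measured by a probe set of their own. None of these passed in any of the 4 comparisons of diet or genotype with limma. At an unadjusted p under 0.05 there were 0 in KI_CD minus WT_CD, 1 in KI_MR minus WT_MR, 0 in KI_MR minus KI_CD and 2 in WT_MR minus WT_CD. The widest span of group means among them was that of Serpina3n, an acute-phase serpin, at 12.77 log2 units in KI_MR, 13.21 in KI_CD, 12.39 in WT_MR and 12.95 in WT_CD. Its change in WT_MR minus WT_CD was -0.56 ± 0.20 (limma, adjusted p = 0.432). The spans of Serpina1d, Serpina1f and Serpina9 were 0.243, 0.216 and 0.171. A pair of further probe sets carry 5 alpha-1-antitrypsin symbols together, Serpina1a to Serpina1e, and cannot be given to 1 gene: their group means were 13.20 to 13.35 and 13.75 to 13.84. A second list held Agt, the precursor of angiotensin and itself a clade A serpin, and secreted serpins of other clades, with 7 of 9 measured. Agt was higher in KI_CD than in WT_CD by 0.66 ± 0.09 (limma, adjusted p = 0.0296), a call lost in 6 of 12 fits that each left out 1 array. No other gene of this list passed in that comparison, and none passed in the other 3. Of the 7 genes, 3, 1, 0 and 3 had an unadjusted p under 0.05 (limma) in the order of comparisons above.

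Genes whose pattern lay nearest to a serpin were ranked by the root mean square difference over the 12 arrays after each gene was centred on its own mean, for the 3 serpins whose group means spanned at least 1 log2 unit. The ranking is a description, and since it follows the levels of selected genes no p-value is given for it. Nearest to Serpina7, whose own root mean square deviation was 1.02, were Cyp4a14 (a fatty acid omega-hydroxylase) at 0.51, Flvcr2 at 0.52, Ildr2 at 0.62, Dnajc12 at 0.63 and Mgst3 at 0.64. In WT_MR minus WT_CD, the difference was 2.06 ± 0.26 for Cyp4a14 and 1.54 ± 0.22 for Mgst3, against 0.84 ± 0.23 for Flvcr2, 1.02 ± 0.19 for Ildr2 and 0.74 ± 0.34 for Dnajc12.

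Nearest to Serpina12, with a deviation of 1.04, were Moxd1 at 0.24, Cabyr at 0.45, Cyp7b1 (an oxysterol hydroxylase) at 0.46, Cyp2u1 at 0.49 and Nudt7 at 0.50. Moxd1 averaged 5.0 log2 units in KI_MR, 5.11 in KI_CD, 5.22 in WT_MR and 7.19 in WT_CD, a difference of -1.97 ± 0.34 in WT_MR minus WT_CD. Outside WT_CD, Moxd1 was below the lower quartile of gene levels and Serpina12 close to it. Their likeness there is between dim signals. Nearest to Serpina4-ps1, with a deviation of 2.36, were Hsd3b5 at 1.11, Slco1a1 at 1.31, Susd4 and Mup21 both at 1.36, and Hsd3b2 at 1.38. Hsd3b5, a steroid dehydrogenase of male mouse liver, averaged 5.69 in KI_MR, 8.20 in KI_CD, 5.31 in WT_MR and 11.99 in WT_CD. Its restricted means were below or close to the lower quartile of gene levels, so changes against them may be understated.

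**Figure D4:**
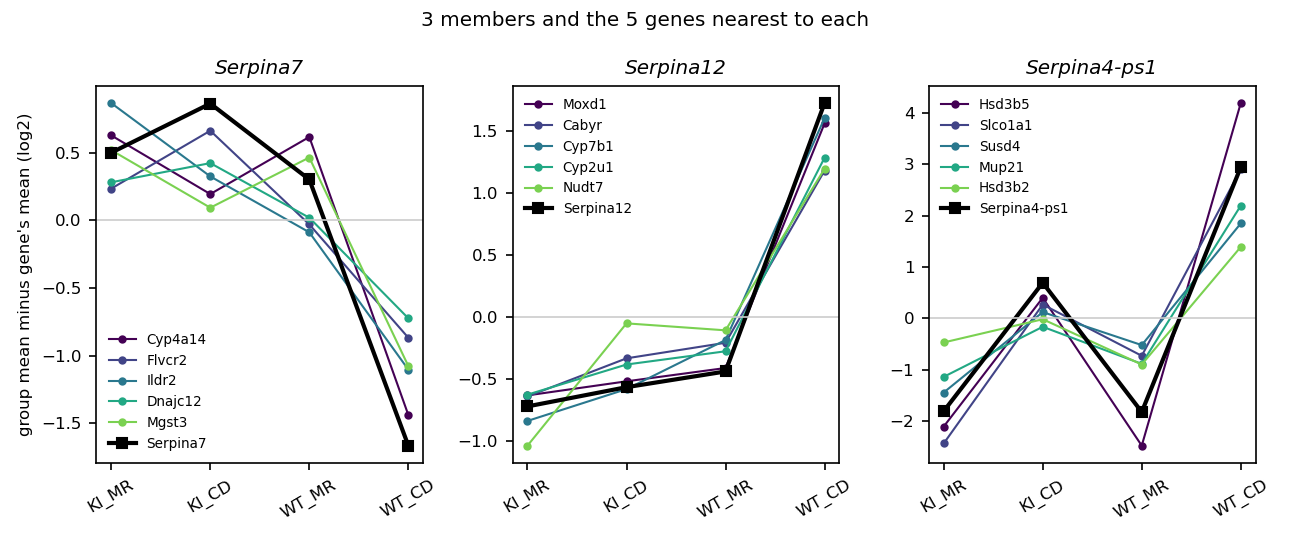
Centred log2 level (vertical axis, each gene minus its mean over the arrays) of Serpina7, Serpina12 and Serpina4-ps1 and the 5 genes nearest to each, as group means in the order KI_MR, KI_CD, WT_MR and WT_CD (horizontal axis). The serpin is the thick black line with squares and the other genes are thin coloured lines. In WT_CD the Serpina7 panel is low, and the Serpina12 and Serpina4-ps1 panels are high.

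Thyroid hormone genes other than Serpina7 made few calls. Of 7 of 8 measured carriers and uptake transporters, none passed with limma in the 4 comparisons, and 1 had an unadjusted p under 0.05, in KI_MR minus WT_MR. Slc10a1, a bile acid transporter that also takes up thyroid hormone, changed there by 0.23 ± 0.10 (limma, adjusted p = 0.313). None of 8 of 10 measured deiodinases, receptors and cofactors passed, with 2, 3, 1 and 2 at an unadjusted p under 0.05 in KI_CD minus WT_CD, KI_MR minus WT_MR, KI_MR minus KI_CD and WT_MR minus WT_CD. The thyroid hormone receptor gene Thra changed by 0.40 ± 0.08 (limma, adjusted p = 0.0632) and its partner Rxrb by -0.25 ± 0.06 (limma, adjusted p = 0.0934), both in KI_MR minus WT_MR.

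Dio1, the liver deiodinase that converts thyroxine and is itself induced by thyroid hormone, and the lipogenic target Thrsp were singled out after their values were seen. Dio1 averaged 8.28 ± 0.84 log2 units in KI_MR, 8.58 ± 1.20 in KI_CD, 8.21 ± 0.40 in WT_MR and 10.18 ± 0.50 in WT_CD (SD, n = 3 each). Its change in WT_MR minus WT_CD was -1.96 ± 0.56, which did not pass (limma, adjusted p = 0.238). Of 11 of 12 measured thyroid hormone targets, Cyp7a1, which catalyses the rate-limiting step from cholesterol to bile acids, was lower in KI_MR than in WT_MR, at -1.98 ± 0.32 (limma, adjusted p = 0.0314), a call lost in 6 of 12 fits without 1 array. No target passed in the other 3 comparisons, and the list did not move one way: in WT_MR minus WT_CD 5 of 11 were above 0 and 6 below, with a median of -0.14. Thrsp changed by -1.79 ± 0.64 there (limma, adjusted p = 0.423). The 5 above 0 were Cyp7a1 at 1.11 ± 0.32 (limma, adjusted p = 0.256), Bcl3 at 0.31, Strbp at 0.26, Me1 at 0.15 and Idh3a at 0.001. Below 0, besides Thrsp and Dio1, were Nrp1 at -0.48, Gpd2 at -0.28, Klf9 at -0.17 and Hr at -0.14. KI_CD minus WT_CD, which shares the WT_CD arrays, was -1.95 ± 0.64 for Thrsp (limma, adjusted p = 0.309) and -1.60 ± 0.56 for Dio1 (limma, adjusted p = 0.335). For Me1 it was -1.09 ± 0.44 (limma, adjusted p = 0.396). In that comparison 5 of 11 targets were above 0 and 6 below, with a median of -0.04. At an unadjusted p under 0.05 (limma) there were 3 of 11 targets in each genotype comparison and 4 in each diet comparison.

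Around Serpina6, none of 6 of 7 measured genes of glucocorticoid metabolism and reception passed, with 0, 2, 3 and 0 at an unadjusted p under 0.05 in KI_CD minus WT_CD, KI_MR minus WT_MR, KI_MR minus KI_CD and WT_MR minus WT_CD. In KI_MR minus WT_MR, the glucocorticoid receptor gene Nr3c1 changed by 0.38 ± 0.07 (limma, adjusted p = 0.0535), and H6pd, which supplies cofactor for corticosterone regeneration, by -0.37 ± 0.09 (limma, adjusted p = 0.108). Among 13 measured glucocorticoid targets, Gadd45b, a stress-induced gene, was higher in WT_MR than in WT_CD, by 2.41 ± 0.42 (limma, adjusted p = 0.0413), a call lost in 7 of 12 fits without 1 array. The median change of these targets was 0.44 in KI_CD minus WT_CD and 0.46 in KI_MR minus WT_MR, against -0.02 and -0.04 over all genes, with 11 of 13 above 0 in each and none past the threshold. At an unadjusted p under 0.05 (limma) there were 6, 4, 1 and 2 of the 13 in the order of comparisons above.

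All 6 listed targets and partners of vaspin and of the protein Z-dependent inhibitor were measured. F11, which encodes coagulation factor XI, the zymogen of a protease that Serpina10 inhibits, fell under restriction in wild-type mice. WT_MR minus WT_CD was -1.61 ± 0.15 (limma, adjusted p = 0.00135), a call kept in all 12 fits without 1 array. In KI mice the change was -0.73 ± 0.15 (limma, adjusted p = 0.103). Klk7, the protease target of vaspin, changed by -0.12 in WT_MR minus WT_CD, Hspa5, a chaperone reported to bind vaspin, by -0.03, and F10, the zymogen of the Serpina10 target factor Xa, by -0.07. Proz, the cofactor protein Z, changed by -0.41 ± 0.16 (limma, adjusted p = 0.481) and F9 by -0.39 ± 0.22 (limma, adjusted p = 0.762). All 6 genes were below 0 in WT_MR minus WT_CD, with a median of -0.25 against -0.004 over all genes. At an unadjusted p under 0.05 (limma) there were 2 of 6 in that comparison and 1 in each other comparison of diet or genotype.

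Sex-biased liver genes, many of them regulated by growth hormone pulses through STAT5, were counted on the same arrays. These lists were chosen with earlier results of these data known. Hsd3b5, Slco1a1, Susd4, Mup21, Cyp7b1 and Cyp2u1 of the male-biased list were also among the genes nearest to Serpina4-ps1 or Serpina12. The counts and calls are therefore a description and not an independent test. Of 15 of 18 measured male-biased genes, 3 were lower in KI_CD than in WT_CD, 2 in KI_MR than in WT_MR, 1 in KI_MR than in KI_CD and 4 in WT_MR than in WT_CD, and none was higher. KI_CD minus WT_CD and WT_MR minus WT_CD share the WT_CD arrays. The median changes in that order were -1.73, -0.35, -0.98 and -1.95, against -0.02, -0.04, -0.02 and -0.004 over all genes. At an unadjusted p under 0.05 (limma) there were 13, 4, 6 and 13 of the 15 in the same order. In WT_MR minus WT_CD the genes that passed were C6, a complement component, at -2.65 ± 0.27 (limma, adjusted p = 0.00192), Hsd3b5 at -6.68 ± 0.83 (limma, adjusted p = 0.00686), Mup21, a urinary pheromone-binding protein, at -3.09 ± 0.46 (limma, adjusted p = 0.0177), and Cyp4a12b at -2.40 ± 0.40 (limma, adjusted p = 0.0334). Cyp4a12a was lower in KI_CD than in WT_CD, at -3.81 ± 0.42 (limma, adjusted p = 0.00722) and in KI_MR than in WT_MR, at -3.85 ± 0.42 (limma, adjusted p = 0.00701), calls lost in 1 and 2 of 12 fits without 1 array. The WT_MR minus WT_CD call of C6 was kept in all 12 fits without 1 array, while those of Hsd3b5, Mup21 and Cyp4a12b were lost in 2, 5 and 6 of them.

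Of 12 of 16 measured female-biased genes, 1, 2, 2 and 1 were higher in KI_CD minus WT_CD, KI_MR minus WT_MR, KI_MR minus KI_CD and WT_MR minus WT_CD, and none was lower. The median changes in that order were 0.53, 0.30, 0.64 and 0.78, against -0.02, -0.04, -0.02 and -0.004 over all genes. At an unadjusted p under 0.05 (limma) there were 4, 3, 5 and 9 of the 12 in the same order. Cyp2b9, a cytochrome P450 of female mouse liver, was higher in WT_MR than in WT_CD by 4.89 ± 0.47 (limma, adjusted p = 0.00135). It was also higher in KI_CD than in WT_CD, by 4.59 ± 0.47 (limma, adjusted p = 0.00653), a comparison that shares the WT_CD arrays. Both Cyp2b9 calls were kept in all 12 fits without 1 array. Cyp2b13, another of these enzymes, was higher in KI_MR than in WT_MR by 2.93 ± 0.54 (limma, adjusted p = 0.0486) and in KI_MR than in KI_CD by 4.08 ± 0.54 (limma, adjusted p = 0.0193), calls lost in 9 and 4 of 12 fits without 1 array. Cux2, a female-biased transcription factor that is also on the list of 11 measured growth hormone and STAT5 genes, was higher in KI_MR than in WT_MR by 0.89 ± 0.15 (limma, adjusted p = 0.0339) and in KI_MR than in KI_CD by 1.20 ± 0.15 (limma, adjusted p = 0.0137). No other gene of that list passed. Of its 11 genes, 4, 3, 1 and 3 had an unadjusted p under 0.05 (limma) in the order of comparisons above. These Cux2 calls were lost in 9 and 3 of 12 fits without 1 array. None of 10 of 12 measured hepatocyte transcription factor genes passed, with 0, 2, 0 and 0 at an unadjusted p under 0.05 in the same 4 comparisons. Foxa2 changed by 0.49 (limma, adjusted p = 0.254) and Hnf4a by 0.36 (limma, adjusted p = 0.293) in KI_MR minus WT_MR.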

How the data were processed

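Liver RNA from 12 arrays in 4 groups of 3 was analysed, grouped by the sample titles. The authors deposited 1 table of whole-number linear intensity values per probe set, from 10 to 20042. RNA was extracted with Trizol and RNeasy and labelled with biotin, per the labels' protocols; the authors' background correction and scaling are not given in the sources used here. Of 35512 probe sets, 21789 had a single gene symbol in the platform annotation, 1621 had several and 12102 had none. The probe set with the highest mean was kept for each of 19938 genes; 19856 matched RefSeq by Entrez identifier and no symbol changed.

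The log2 of each deposited intensity was taken with no further scaling. limma 3.58.1 in R 4.3.3 fitted 4 group means to all 12 arrays (8 residual degrees of freedom), with two-sided moderated tests and Benjamini-Hochberg adjustment over all genes at 0.05; the code was tested on simulated data. Intervals are at 95%. The number of arrays limits precision. The members and gene lists were chosen with earlier results of these data known. Named genes were all members and, for each member whose group means spanned at least 1 log2 unit, the 5 genes nearest in pattern. From each list came up to 4 genes that passed in any comparison or, where none did, up to 2 with the smallest unadjusted p. Of the other clade A serpins with a Serpina symbol, the 4 with the widest span were named. The thyroid hormone targets other than Cyp7a1, the adipocyte markers and the partners other than F11 were named outside these rules, after their values were seen. Alternatives were quantile normalization, median centring, removal of the dimmest 25% or 50% of genes, the mean of a gene's probe sets, a trended robust prior, array weights, the arrays of the compared groups alone, a replicate block, and leaving out each array. Coordinates are RefSeq's for GRCm38.p6; the files name no build.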

Additional observations from a re-analysis of the deposited data

How the results depend on the processing

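In WT_MR minus WT_CD, Serpina7 was 1.80 to 2.12 and Serpina12 -2.46 to -1.89 with 1 array left out. The number of serpins past the threshold, from which nothing is read because they were selected on these levels, varied. In KI_CD minus WT_CD it was 0 with only the arrays of the 2 groups, 1 without the dimmest 50% of genes, where Serpina12 was not tested, and 1 to 2 with 1 array left out, the 1 being without the first WT_CD array. In WT_MR minus WT_CD it was 1 without the dimmest 50% of genes, 5 with array weights, and 2 to 3 with 1 array left out. In KI_MR minus WT_MR it was 1 with array weights, where Serpina11 changed by 0.44. In the interaction it was 0 to 1 with 1 array left out. The array weights rest on 1 array: the first WT_MR array had a weight of 16.7, against 0.291 to 1.45 for the others, and the estimation stopped before it converged. Changes near 0 turned sign: Serpina6 in KI_CD minus WT_CD was 0.005 with median centring, and with array weights Serpina11 was 0.0752 in KI_CD minus WT_CD and -0.0225 in KI_MR minus KI_CD. With 1 array left out, ranges that crossed 0 were, for Serpina6, -0.0824 to 0.0447 in KI_CD minus WT_CD, -0.197 to 0.0179 in KI_MR minus WT_MR and -0.176 to 0.0388 in the interaction; for Serpina10, -0.236 to 0.0962 in KI_MR minus WT_MR and -0.312 to 0.0579 in WT_MR minus WT_CD; for Serpina11, -0.221 to 0.0905 in KI_CD minus WT_CD and -0.0736 to 0.238 in KI_MR minus KI_CD; and for Serpina4-ps1, -0.139 to 0.203 in KI_MR minus WT_MR.

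Counts over all genes were 16 in KI_CD minus WT_CD, 94 in KI_MR minus WT_MR, 35 in KI_MR minus KI_CD and 65 in WT_MR minus WT_CD. In the same order they were 20, 58, 18 and 68 with median centring, 26, 70, 40 and 72 with the trended robust prior, 168, 4612, 130 and 2204 with array weights, 0, 15, 0 and 131 with only the arrays of the 2 groups, 31, 89, 42 and 87 without the dimmest 25% of genes, and 19, 177, 34 and 74 with the replicate block. With 1 array left out they were 2 to 32, 3 to 226, 7 to 94 and 17 to 199, the highest of each being without the first KI_CD array. Arrays with the same replicate number deviated together in part: over 18 pairs the correlation was -0.06 to 0.24, 9 of them above 0.1. In 26 of 36 array-by-group comparisons an array matched its own number best, more often than random numbering would give on average. The titles give the numbers without a meaning, so the main fit leaves them out and the replicate block is an alternative. What the numbers stand for was not tested. With the replicate block 2, 0, 0, 2 and 0 serpins were called in the 4 comparisons and the interaction, as without it. The cause of these shifts was not tested. Signal near background limits Serpina12 outside WT_CD, and Serpina4-ps1 in the restricted arrays and the first KI_CD array.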
